A study of Mus musculus with 2 samples.

Results

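The genes described here encode nucleoporins (the building blocks of the nuclear pore), RNA helicases of the DEAD-box family and factors of the nucleolus and the RNA exosome. They were chosen by name and by detection. A member is a gene with a non-control probe whose annotated name starts with Nup, Ddx, Nop, Utp or Exosc followed by a digit, or is Ncl, Npm1, Fbl, Nolc1, Dkc1, Rrp9, Rrp12, Polr1a, Polr1b or Bop1. There were 196 such probes among 56605, and they carried 95 gene names. The only measured value in the rule is the scanner software's flag for a spot well above background on at least 1 array, which 177 probes and 91 genes passed. Ddx3y, Ddx4, Nup210l and Nup62cl did not pass, and their brightest spot, a Nup210l spot on the negative array, read 16.2. The dimmest gene that passed was Ddx60, which read 20.1 on the negative array and 23.5 on the other.

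The study compared cells sorted by fluorescence from Peyer's patches, clusters of lymphoid tissue in the small intestine wall, of C57BL/6 mice transgenic for S100A4-GFP, a green fluorescent reporter of the calcium-binding protein S100A4. Tissue pieces were digested with dispase II, collagenase D and DNase I, and reporter-positive and reporter-negative cells were collected, so both groups share genotype, strain, tissue and digestion. The number, age and sex of the mice, and the sequence that drives the reporter, are not given in the sources used here. RNA of each group was hybridised to 1 array of 60-base probes, so no difference below has a replicate check or a p-value, and sizes are described by whether they reach 2-fold.

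Each value below is either the background-subtracted signal of a probe on each array, or the log2 difference, positive minus negative, after the signals of an array were divided by their 75th percentile (445.9 for the negative, 287.3 for the positive array). The error after ± is the scanner software's error of that difference, and it does not cover variation between animals, sorts or labellings. S100a4 itself read 1057 and 119341 (here and below the negative array comes first), a difference of 7.45 ± 0.20. The negative group had the higher signal for 10 of 10 B cell markers (median -5.47, summed scaled signal 490 against 21.5), for 6 of 6 germinal centre markers (median -4.90) and for 6 of 8 T cell markers (median -3.27). The positive group had the higher signal for 9 of 9 macrophage and monocyte markers (median 6.31, summed scaled signal 9.15 against 583), for 6 of 6 measured classical dendritic cell markers (median 4.57, or 4.12 at the bounds) and for 5 of 6 innate lymphoid markers (median 5.04), all at least 2-fold. Of 7 epithelial markers, 5 were at least 2-fold lower in the positive group and 1 higher. Of 4 plasmacytoid dendritic cell markers, 1 was at least 2-fold higher and none lower (median 0.50). Of 5 measured markers of stroma and endothelium, 1 was at least 2-fold lower and 2 higher (median -0.25). On the positive array Pax5, Rgs13 and Krt19, among others, did not rise well above background. The part of these cell types in any difference below was not tested, and in such bulk samples fewer cells of a type and less RNA per cell cannot be told apart.

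The nuclear pore complex is the channel through which proteins and RNA pass the nuclear envelope. Its scaffold consists of the Y complex, which forms the outer rings, and the inner ring, while nucleoporins rich in phenylalanine-glycine repeats line and flank the channel. The nucleolus is where RNA polymerase I transcribes ribosomal RNA and where small nucleolar ribonucleoproteins (snoRNPs) and many helicases process it into ribosomal subunits. The exosome degrades and trims RNA from its end, and DEAD-box proteins use ATP to rearrange RNA at nearly every step from splicing to translation. Lymphocytes that begin to grow and divide, as in a germinal centre, enlarge their nucleoli and raise ribosome production.

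A larger share of members than of all named genes was lower in the positive group. Of the 91 measured members, 27 were at least 2-fold lower in the positive group (29.7%), against 17% of 15245 named genes, with a gene seen on 1 array set at its bound. The count hides that background correction changed its genes: with normexp correction in place of the scanner software's, 25 members were at least 2-fold lower, of which 18 were among these 27. With normexp 11.5% of all named genes were at least 2-fold lower. Only Utp6 was at least 2-fold higher, against 21.4% of all named genes, and 63 members lay within 2-fold. The median member difference was -0.76, which is 1.69-fold, while the median of all named genes was 0.02. Differences below 0 were found in 75 members (82.4%) against 48% of all named genes. Members were also spread less widely, with their middle 50% between -1.08 and -0.27, against -0.77 and 0.85 for all named genes. Both the count and the median depended on which probe stands for a gene. With the median over a gene's probes in place of its brightest probe, 20 members were at least 2-fold lower (22%, against 15.4% of all named genes). None was at least 2-fold higher, and the members' median was -0.47. The members' median then lay 0.53 below that of all named genes on the log2 scale (a gap of -0.53), and that gap was -0.78 with the brightest probe.

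**Figure D1:**
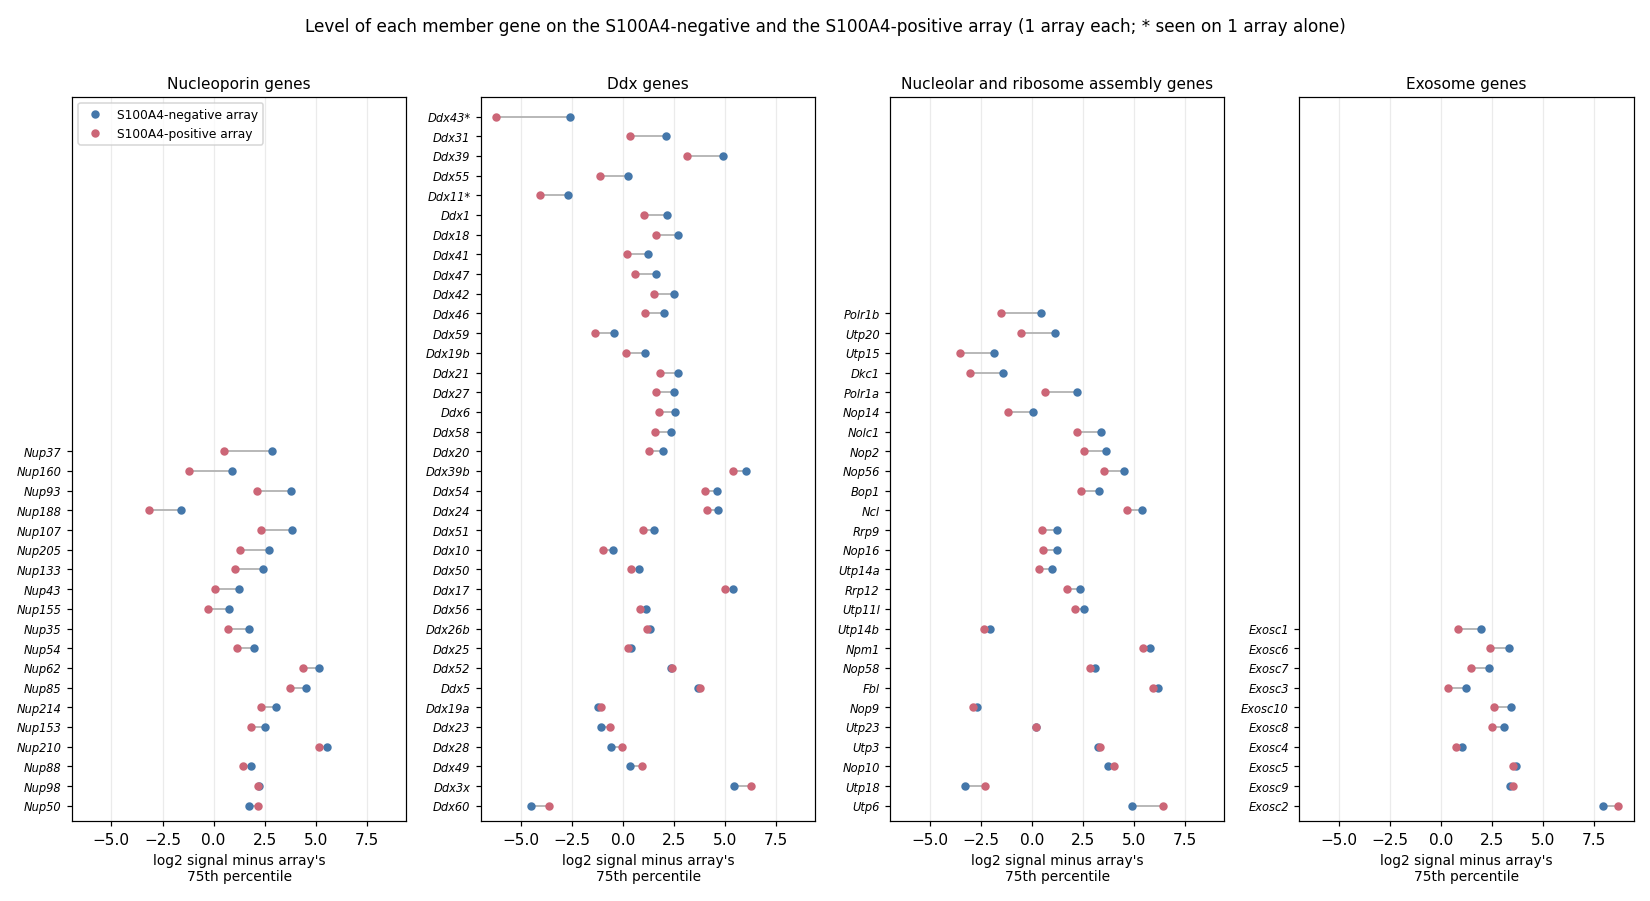
Level of each of the 91 measured members on the S100A4-negative (blue) and S100A4-positive (red) array, as the log2 signal minus the array's 75th percentile, with 1 array per group and genes ordered by their difference. The red point lies to the left of the blue one for 75 genes, and Ddx43 and Ddx11 (asterisks) were seen on the negative array alone, so their red points are signals near background.

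With the brightest probe per gene the nucleoporins had the lowest median of the 4 groups of members, but with the median over probes they had the highest (-0.43, against -0.45 for helicases, -0.70 for nucleolar and -0.80 for exosome genes). Their 19 measured genes had a median of -1.00, and 10 were at least 2-fold lower in the positive group (52.6%, against 17% of all named genes). None was at least 2-fold higher. The 10 lower genes were all scaffold genes: 5 of 6 members of the Y complex and 5 of 5 of the inner ring, with medians of -1.44 and -1.43. None of the other 8 nucleoporins reached 2-fold either way, and their median was -0.55. Pore genes outside the name rule did not all follow the same split. Within the scaffold, the Y complex gene Seh1l had -1.02, with -0.58 at its other probe, and Sec13 had -0.04. Outside the scaffold, Ndc1 (-2.35), Aaas (-1.76), Nupl1 (-1.47), Nupl2 (-1.12) and Rae1 (-1.08) were at least 2-fold lower on their brightest probe. Pom121 (-0.92), Tpr (-0.45), Gle1 (-0.15) and Ranbp2 (0.42) lay within 2-fold. This split of the nucleoporins, like the other subdivisions by complex or task below, was drawn after the values were seen, and the difference between the parts was not tested.

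In the Y complex, Nup37 read 3187 and 409, a difference of -2.33 ± 0.20 or 5.02-fold, the largest among members seen on both arrays. Its other probe gave -2.55. Nup160, which with Nup37 forms an arm of the Y, read 841 and 125 (-2.12 ± 0.21), and Nup107 read 6415 and 1439 (-1.52 ± 0.20). All 3 were lower in the positive group by several times the software's error. Nup133, which sits at the tip of the stem, read 2379 and 602 (-1.35 ± 0.20), and Nup43 read 1047 and 299.8 (-1.17 ± 0.20). Nup85 was the only member of the complex within 2-fold, at 10091 and 3838 (-0.76 ± 0.20). Sec13, a Y complex gene outside the name rule, also lay within 2-fold (-0.04).

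In the inner ring, Nup93, which links the scaffold to the channel, read 6149 and 1263 (-1.65 ± 0.20). Nup188 and Nup205, its large partner proteins, read 145 and 32.2 (-1.54 ± 0.28; -0.69 with normexp) and 2961 and 709 (-1.43 ± 0.20). Nup155 read 748 and 236 (-1.03 ± 0.21). Nup35, the smallest subunit, just reached 2-fold at 1475 and 475 (-1.00 ± 0.20). With normexp 2 of the 5 genes were at least 2-fold lower. All 5 inner ring genes were thus lower in the positive group on the probe used.

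The channel and peripheral nucleoporins among the members stood nearer to the middle of all genes. Nup62 and Nup54, which fill the central channel, read 16091 and 6028 (-0.78 ± 0.20) and 1728 and 634 (-0.81 ± 0.20). Nup214 and Nup88, on the cytoplasmic face, had differences of -0.73 and -0.37, and the membrane nucleoporin Nup210 had -0.39. The 2 genes of the nuclear basket did not go together: Nup153 read 2565 and 1005 (-0.72 ± 0.20), whereas Nup50 read 1463 and 1282 (0.44 ± 0.20). Nup98, whose transcript also encodes a Y complex subunit made by cleavage of the same precursor, read 2072 and 1314 (-0.02 ± 0.20), and its 4 other measured probes gave 0.16 to 1.17.

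**Figure D2:**
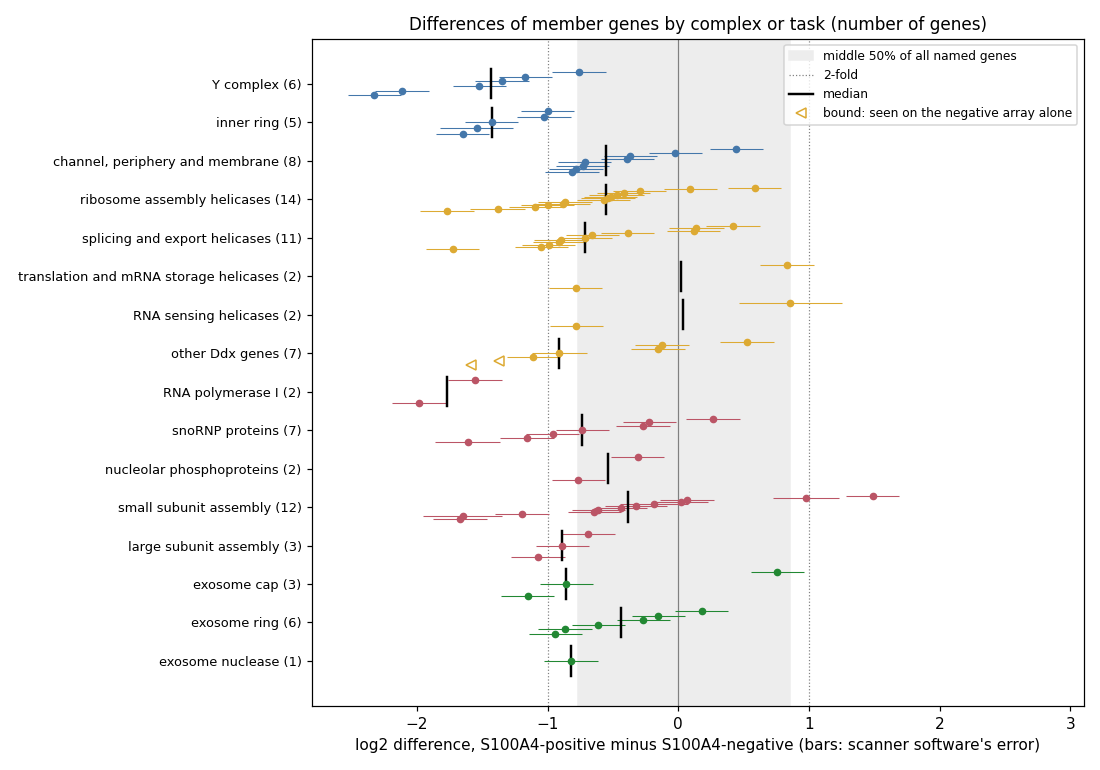
Log2 difference (positive minus negative) of each measured member by complex or task, with the scanner software's error as bars, the median of each set as a black line and the middle 50% of all named genes (-0.77 to 0.85) in grey. The Y complex, the inner ring and RNA polymerase I have medians of -1.44, -1.43 and -1.77, past the dotted 2-fold line, and the channel and peripheral nucleoporins lie at -0.55.

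The scaffold result rested on 1 probe per gene. Of the 11 scaffold genes among the members, 9 had over 1 measured probe, and in 7 of them the probes lay at least 2-fold apart. With the median over probes, 1 of 6 Y complex genes and 2 of 5 inner ring genes were at least 2-fold lower, with medians of -0.84 and -0.43. For Nup107 the brightest probe gave -1.52, and the other probe, at 16.4 and 21.8, gave 1.05 ± 0.49. For Nup160 a pair of probes gave -2.12 and -1.90, and the other pair gave -0.01 and 0.12 at signals between 41.8 and 66.8. In the inner ring, the other probe of Nup188 gave 0.68, those of Nup205 gave -0.27 and 0.19, those of Nup155 gave 0.50 and 0.31, and that of Nup93 gave -0.54. The other probes of Nup133 gave -0.44 and -0.28.

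The probes that disagreed differed in where they lie along the gene. By their mm9 positions and strand, the brightest probe was the most downstream of the measured probes in all 9 scaffold genes that had several. This was also so in 46 of 53 members (86.8%) and in 72.2% of 6786 named genes. The most downstream probes of these 9 genes had a median of -1.52, and 9 were at least 2-fold lower; the most upstream probes had a median of 0.12, and 1 was at least 2-fold lower. For Nup160, the downstream pair begin at chr2:90573346 and chr2:90576065 and the upstream pair at chr2:90530339 and chr2:90532618, all on the plus strand. The same order was present across the array. Of 6786 named genes with several placed probes, the most downstream probe gave a lower difference than the most upstream probe in 66.7%, with medians of -0.22 and 0.19. Over the 53 members with several placed probes these medians were -0.81 and -0.27. The members' downstream probes lay 2-fold or more lower in 16 of the 53 genes and their upstream probes in 8. Over the 6786 named genes these counts were 1499 and 983. As shares, the members lay above all named genes at the downstream probes and were about equal to them at the upstream probes. With all measured probes split by signal into 4 equal bins, from dim to bright, the medians were 0.27, 0.16, -0.10 and 0.08. Those of all measured member probes fell steadily, at -0.16, -0.26, -0.62 and -0.71. Those of the member probes used did not, at -1.38 (over 3 probes), -0.32, -0.80 and -0.76. The part of probe position and signal in the members' differences was not tested. The exon in which each probe lies was not analysed here.

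**Figure D3:**
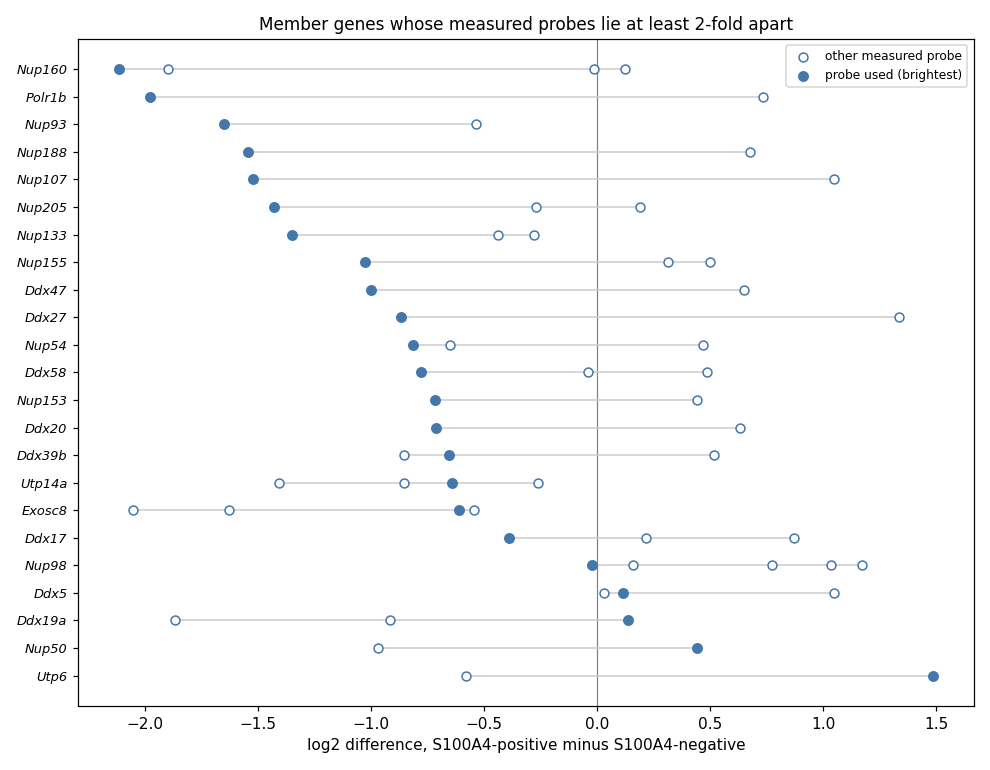
Log2 difference (positive minus negative) of every measured probe of the 23 members whose probes lie at least 2-fold apart, with the probe used for the gene filled. In Nup160, Polr1b, Nup188, Nup107, Nup205 and Nup155 the filled point is the lowest and at least 1 other probe lies above 0, while Utp6 and Nup50 show the reverse.

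Across all members, 53 genes had over 1 measured probe, and probes lay at least 2-fold apart in 23 of them, against 37.9% of all named genes with several probes. Probes of both signs were also found in 23, against 32.4%. The probe used gave the lowest difference of its gene in 27 and the highest in 16. Npm1 has a probe printed in 10 spots, whose differences ran from -0.48 to -0.04, all on the same side of 0.

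The DEAD-box genes numbered 36, including 2 seen on the negative array alone. Their median was -0.68, and 8 were at least 2-fold lower in the positive group (22.2%, against 17% of all named genes). None was at least 2-fold higher. With the median over probes the median of these genes was -0.45. The median of 14 helicases of ribosome assembly was -0.55, and 3 of them (21.4%) reached 2-fold lower. Ddx31, a nucleolar helicase, read 1947 and 368 (-1.77 ± 0.20), Ddx55 read 534 and 132 (-1.38 ± 0.21), and Ddx18 read 2936 and 887 (-1.09 ± 0.20). These 3 differences were several times the software's error. Ddx47, which just missed 2-fold, read 1368 and 441 (-1.00 ± 0.20), and its dim other probe gave 0.65. Ddx21, which also acts on transcription of ribosomal RNA, had -0.88. Ddx27 read 2547 and 900.1 (-0.87 ± 0.20), and its other probe, at 19.5 and 31.8, gave 1.34. At the other end Ddx49 read 575 and 555 (0.58 ± 0.20).

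Among 11 helicases of splicing and RNA export, 2 were at least 2-fold lower (18.2%, against 17% of all named genes) and the median was -0.71. Ddx39, now named Ddx39a, an mRNA export helicase, read 13245 and 2577 (-1.73 ± 0.20). Its close relative Ddx39b, the export and splicing factor UAP56, read 29363 and 11997 (-0.66 ± 0.20), and its other probes gave -0.86 and 0.52. Both were lower in the positive group on their brightest probe, by unequal amounts. Ddx41 had -1.05, and the spliceosomal helicases Ddx42, Ddx46 and Ddx23 had -0.99, -0.91 and 0.42. Ddx20, a subunit of the complex that assembles splicing particles, read 1764 and 694 (-0.71 ± 0.20), with its other probe at 0.63. The RNA helicase Ddx5 read 5732 and 4004 (0.12 ± 0.20) and its paralog Ddx17 read 18896 and 9301 (-0.39 ± 0.20). Their further probes reached 1.05 and 0.87. Ddx19a, an export helicase, read 191 and 135 (0.14 ± 0.21), but its other probes gave -0.92 and -1.87, and with normexp the gene was at -1.27. Its near-identical neighbour Ddx19b had -0.90, and probes of such paralogs can share targets, so these values are uncertain.

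Outside the nucleus, Ddx3x, a translation helicase, was among the few members with more signal in the positive group, at 19214 and 22051 (0.83 ± 0.20). Its other probes gave 0.56 and 1.34, so its 3 probes lay on the same side. Its Y-linked paralog Ddx3y was not measured. Ddx6, which represses and stores mRNA, had -0.79. Ddx58, the viral RNA sensor RIG-I, read 2320 and 870 (-0.78 ± 0.20), with -0.04 and 0.49 at its other measured probes. Ddx60, an antiviral helicase induced by interferon, read 20.1 and 23.5 (0.86 ± 0.39), barely above background, and its other probe gave 0.04. For these sensors no single direction held over the probes.

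The other 7 Ddx genes have varied tasks. Ddx43, a helicase known from testis and tumours, read 73.5 on the negative array and was not seen above background on the other, where it was at least 3.01-fold lower. Ddx11, by function a DNA helicase of sister chromatid cohesion despite its name, read 68.9 on the negative array and was likewise not seen on the other, where it was at least 2.60-fold lower. With normexp neither reached 2-fold (measured differences of -0.48 and -0.09). Ddx1, a subunit of the tRNA ligase complex, had -1.11 and Ddx59 had -0.91. Ddx28, a helicase of the mitochondrial ribosome, had 0.52, and Ddx25 and Ddx26b (now Ints6l, no helicase) had -0.12 and -0.16.

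The nucleolar and ribosome assembly genes numbered 26, with a median of -0.67. Of these, 8 reached 2-fold lower (30.8%, against 17% of all named genes) and 1 (Utp6) 2-fold higher. The 2 large subunits of RNA polymerase I were both lower in the positive group. Polr1b read 614 and 100.2 (-1.98 ± 0.21, 3.95-fold), although its other probe, at 22.7 and 24.3, gave 0.73 ± 0.39. Polr1a, the largest subunit, read 2046 and 448 (-1.56 ± 0.20), and its other measured probe gave -1.18. Polr1a was thus lower at both measured probes and Polr1b at 1 of 2.

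Of the 7 snoRNP proteins, 2 (28.6%) were at least 2-fold lower (median -0.73). Dkc1, the enzyme that converts uridine to pseudouridine in ribosomal RNA, read 169 and 35.5 (-1.61 ± 0.25), and its other probe gave -0.97. Nolc1, a chaperone of snoRNPs, read 4673 and 1349 (-1.16 ± 0.20). With normexp neither reached 2-fold (-0.62 and -0.89). Fbl, the methyltransferase fibrillarin, read 32046 and 17720 (-0.22 ± 0.20), a difference about as large as the software's error. Its partners Nop56 and Nop58 had -0.96 and -0.27. Rrp9 had -0.73, and Nop10, which binds Dkc1, had 0.26. The proteins of 1 kind of snoRNP thus did not share 1 size of difference.

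The abundant nucleolar phosphoproteins lay within 2-fold. Ncl, nucleolin, read 18999 and 7201 (-0.77 ± 0.20), with -0.64 at its other probe. Npm1, nucleophosmin, read 24276 and 12600 (-0.31 ± 0.20), and its 3 probes differed by only 0.04.

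Of 12 small subunit assembly factors, 3 (25%) were at least 2-fold lower and 1 higher (median -0.38). Utp20 read 977 and 198 (-1.67 ± 0.21), Utp15 read 125 and 25.6 (-1.65 ± 0.30), and Nop14 read 461 and 129.7 (-1.19 ± 0.21). With normexp Utp15 was at -0.30 and Nop14 at -0.68, so both fell short of 2-fold. These 3 belong to the processome that forms on the nascent ribosomal RNA, as does Utp14a, at 876 and 362 (-0.64 ± 0.20), whose probes ran from -1.41 to -0.26. Its retrogene copy Utp14b had -0.32. Utp18 read 46.2 and 58.6 (0.98 ± 0.25), just short of 2-fold higher, from a single dim probe. Utp3 and Utp23 had 0.07 and 0.02. The 3 large subunit factors Nop2, Bop1 and Nop16 had -1.07, -0.89 and -0.69.

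Utp6 was the only member at least 2-fold higher in the positive group, at 13561 and 24473 (1.49 ± 0.20). Its other measured probe read 569 and 245, a difference of -0.58 ± 0.21, so the direction depended on the probe. The bright Utp6 probe and those of Exosc9, Ddx39b and Exosc2 share a run of 16 bases or more with at least 3 probes of other genes, which 2.43% of all probes do. These 4 windows of 30 bases are shown because the positive differences of Utp6, Exosc9 and Exosc2 come from such probes. Capitals mark 16 bases that probes of other genes also hold: 13 probes for Utp6, 68 for Exosc9, 7 for Ddx39b and 2 for Exosc2.
Utp6: atatcctcttctgGTGTGTCTGAAGACAGt
Exosc9: tggtggatctcTGTGTGTGTGTGTGTGtat
Ddx39b: ttatcagagTTGTTTGTTTGTTTGTttttg
Exosc2: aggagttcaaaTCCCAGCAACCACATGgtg

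The sequences are those of the array's probe annotation, 5′ to 3′. The Utp6 probe lies at chr11:79747473-79747532 on the minus strand of mm9, and that of Exosc2 at chr2:31536706-31536765 on the plus strand. The Utp6 probe shares such a run with 17 probes of other genes, all of them measured, which had a median difference of 0.48 and lay above 0 in 15 cases. Of all 15245 named genes, 7645 lay above 0. The Exosc9 probe, whose capitals mark a TG repeat, shares a run of 16 bases with 73 probes of other genes. Their median was 0.32, and 70 of them lay above 0. The Ddx39b probe shares a run with 16, of which 12 were measured with a median of 0.58 and 7 above 0, while Ddx39b itself was at -0.66. These counts take a run of 16 bases anywhere along the probe, not only the capitals. The run length and the number of probes were chosen after the values were seen, and the number was set so that Exosc2 was included, so counts without these genes are no separate evidence. Whether shared bases move the signal of these probes was not tested.

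The 10 exosome genes had a median of -0.72, with 1 at least 2-fold lower (10%, against 17% of all named genes) and none at least 2-fold higher. Exosc1, of the cap that guides RNA into the barrel, read 1743 and 505 (-1.15 ± 0.20), and its other probe lay within 0.09 of it. The cap gene Exosc3 had -0.86, but Exosc2, the third of the cap, read 108255 and 117892 (0.76 ± 0.20) at its single probe. The ring genes Exosc6, Exosc7, Exosc8, Exosc4, Exosc5 and Exosc9 had -0.94, -0.87, -0.61, -0.27, -0.15 and 0.18. Of these, Exosc8 read 3813 and 1608, and its probes ran from -2.05 to -0.55, all below 0. The second Exosc9 probe, outside the shared run, gave -0.26. Exosc10, the nuclease of the nuclear exosome, read 4740 and 1728 (-0.82 ± 0.20), and its 3 probes lay within 0.19.

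Promoters were looked up in a RefSeq table of 300-base windows on GRCm38.p6, which run from 250 bases before to 50 after the start site and were matched for 78 of the 95 member genes. The letters CACGTG, the E-box that MYC proteins bind among others and which reads the same on both strands, were present in 12 of 78 (15.4%) against 8.09% of 27025 genes. The letters TATAAA, searched on both strands, were present in 8 (10.3%) against 15.7%. The windows below are shown because their genes were among the lower nucleoporins and nucleolar genes, with the E-box letters in capitals, 5′ to 3′ on the strand of the gene.
Nup93: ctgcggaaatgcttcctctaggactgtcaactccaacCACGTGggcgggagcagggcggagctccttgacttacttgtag
Nup188: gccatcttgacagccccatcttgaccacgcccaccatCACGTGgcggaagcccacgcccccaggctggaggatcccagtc
Nop2: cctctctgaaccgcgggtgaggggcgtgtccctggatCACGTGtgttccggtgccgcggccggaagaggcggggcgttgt

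These windows lie at chr8:94214352-94214431, chr2:30286313-30286392 and chr6:125131786-125131865, all on the plus strand of GRCm38.p6, and the motif begins 175, 66 and 60 bases before the start site. Their genes had differences of -1.65, -1.54 and -1.07. Utp20 (-1.67) also holds the motif, which begins 37 bases after its start site, and its window is not shown. Of the 11 measured members with the motif, 9 lay below 0 and 4 were at least 2-fold lower, beside 75 and 27 of all 91. Ddx5 (0.12) and Utp18 (0.98) were the 2 above 0. Myc itself read 2619 and 184 (-3.20 ± 0.21). A match of letters is a description of the sequence and shows no binding.

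Genes that work with the members were taken from lists of pathway genes. Their counts stand beside 17% of all named genes at least 2-fold lower and 21.4% at least 2-fold higher. Nuclear transport factors and other pore proteins also had a median below that of all named genes: 14 of 42 were at least 2-fold lower, none higher, with a median of -0.79. Ndc1, the membrane anchor of the pore, read 2553 and 322 (-2.35 ± 0.20), Rcc1, which loads Ran with GTP, had -2.09, and the import receptor Kpnb1 and the pore protein Aaas had -1.85 and -1.76. The import adaptor Kpna1 stood at the other end with 0.77. Of 65 further ribosome assembly factors, 18 were at least 2-fold lower and 1 higher, with a median of -0.60. Tcof1, treacle, which supports transcription of ribosomal RNA genes, had -2.49, Nol9 had -2.00 and Gar1, a partner of Dkc1, had -1.97, while the kinase Riok1 had 1.01.

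The other RNA polymerase I genes did not follow Polr1a and Polr1b as a group. Of 13, 4 were at least 2-fold lower and none higher, with a median of -0.07. The initiation factor Rrn3 read 1525 and 397 (-1.31 ± 0.20), whereas the subunit Znrd1 read 6812 and 6904 (0.65 ± 0.20) and the architectural factor Ubtf had 0.26. Of 13 exosome cofactors 2 were at least 2-fold lower, Zcchc7 (-1.42) and the nuclease Dis3 (-1.06), and the median was -0.39. Of 25 RNA helicases outside the Ddx names 6 were at least 2-fold lower and none higher (median -0.55). Among them Dhx57 read 1506 and 360.0 (-1.43 ± 0.20), and the translation helicase Eif4a1 had 0.99.

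Genes of RNA sensing and the interferon response lay mostly on the other side. Their median was 1.51, and among 15 genes 10 reached 2-fold higher in the positive group and 2 lower. Rsad2, viperin, read 44.2 and 367 (3.69 ± 0.23), and Ifih1, the sensor MDA5 and relative of Ddx58, had 1.69. Dhx58 and Mavs, which act with Ddx58, had -1.28 and -1.78. The median of 21 cell division genes was -2.32, and 19 of them reached 2-fold lower. The list ran from Cenpf at -4.22 to Pcna at -0.42. The members' median of -0.76 thus lay between that of the cell division genes and that of all named genes. How far the members' differences go with the share of dividing B cells, whose markers are given above, was not tested.

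**Figure D4:**
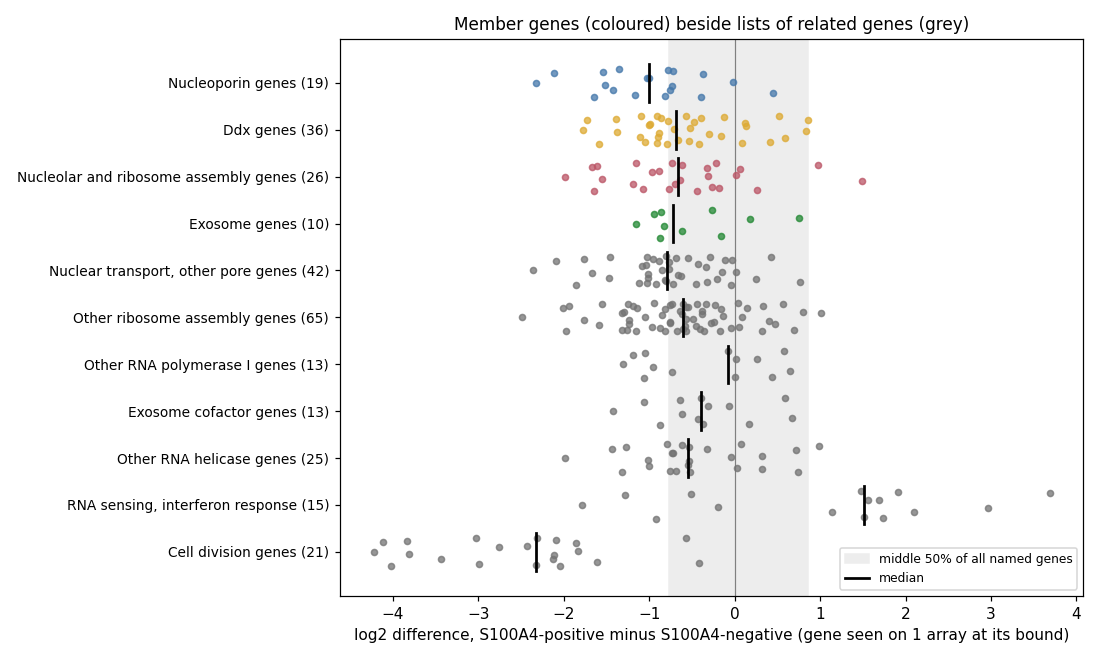
Log2 differences (positive minus negative) of the member genes, in colour by group, beside lists of related genes in grey, with each list's median as a black line and the middle 50% of all named genes shaded. The 4 member groups have medians from -1.00 to -0.67, the cell division genes -2.32, the genes of RNA sensing and interferon response 1.51 and the other RNA polymerase I genes -0.07.

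The sign of each difference rests on the scaling between arrays. The spike-in controls (7 E1A probes) were 3.66-fold brighter on the positive array, and scaling on them shifted all genes by -2.50. Then 91 of 91 members reached 2-fold lower (median -3.26), as did 83.1% of all named genes. This scaling moves every gene by the same amount, so the gap of -0.78 between the medians of members and of all named genes cannot change with it.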

How the data were processed

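Each group gave 1 Cy3-labelled sample, amplified with a low-input kit per the labels' protocols. The 2 arrays (Agilent design 74809) were read by the authors with Agilent Feature Extraction 10.7.1.1, per the file headers, while the submitters' processing notes give 9.5.1.1. The deposited scanner tables give background-subtracted signal intensity per spot, not normalized between arrays, with software errors. Flags for spots well above background or outlying, another kind of value in the deposited tables, were used as given. A deposited value table of the series, with linear intensities, served as an alternative.

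Control and outlier spots were left out (138 negative-array and 80 positive-array spots; none of a member). Well above background were 53.3% and 52.3% of 59305 non-control spots, and 0 were saturated. Signals were taken to log2, the 75th percentile of an array was subtracted, and repeated spots were averaged. A gene took its probe with the highest mean log2 signal among measured probes. A gene seen on 1 array has a bound, the other array being set at its own signal or the lowest signal well above background, whichever is higher. Other genes were named through a RefSeq table (GRCm38), 12867 probes staying unnamed. Probe positions are those of the array annotation (mm9).

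With 1 array per group no test was possible. Members and gene lists were chosen with earlier results of these data known. Every member could be named, with signals for the 12 largest differences each way, for genes seen on 1 array, for genes with discordant probes and for some core factors, and from each list up to 4 genes each way. A few list genes picked this way are not reported here, though their lists are counted whole. Alternatives were normexp background correction (offset 50), quantile and cyclic loess normalization (limma 3.58.1, R 4.3.3), another percentile set, E1A scaling, no scaling, other filters, the median over probes and the deposited value table. Other steps used Python 3.11.15 and were tested on simulated data. The planned protein sequence features were not analysed here.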

Additional observations from a re-analysis of the deposited data

How the results depend on the processing

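The count of members at least 2-fold lower stayed between 25 and 29 under normexp correction, quantile and cyclic loess normalization, the other percentile set, the deposited value table and both other filters on dim probes. In these settings the share of all named genes at least 2-fold lower ran from 11.4% (no filter) to 21.4% (deposited value table). The genes behind it changed most with normexp, where 18 of the 27 were kept, 9 lost (Ddx11, Ddx43, Dkc1, Nolc1, Nop14, Nup155, Nup188, Nup35 and Utp15) and 7 gained; the median over probes also kept 18, and quantile and cyclic loess normalization, the other percentile set and the deposited value table kept 24 to 26. On the E1A scale 91 members were at least 2-fold lower and 0 higher, with medians of -3.26 over all members, -3.50 for nucleoporins, -3.19 for helicases, -3.17 for nucleolar genes and -3.22 for exosome genes, and Utp6 turned to -1.02. Without scaling, 64 were lower (70.3%, against 35% of all named genes) and 0 higher (against 12.9%). The medians were -1.39, -1.63, -1.32, -1.30 and -1.35 in the same order. Without a filter 2 were higher, against 19.1% of all named genes. With the median over probes 0 were higher, with medians of -0.47 over all members, -0.43 for nucleoporins, -0.45 for helicases, -0.70 for nucleolar genes and -0.80 for exosome genes, so that the order of the groups changed. Leaving out the 4 members with widely shared runs, an alternative chosen after the data were seen, left 0 higher, which follows from leaving out Utp6. The members' median stayed below that of all named genes under every alternative run, by a gap between -0.53 (median over probes) and -1.13 (no filter). Without a filter, genes not seen on either array entered, and the median of all 24813 named genes rose to 0.40. The members' median was then -0.73, so the wider gap came mainly from the comparison set. The inner ring count of 5 fell to 2 with normexp, 3 with cyclic loess and 4 with quantile normalization, the other percentile set or the deposited value table. With normexp the lost genes were Nup35, Nup155 and Nup188 (-0.69). No paired analysis was possible because each group has 1 array. Raw signal over local background, as a median of the members' probes used, was 36.9 (negative array) and 14.7 (positive array). Dim members such as Ddx60, Utp18 and Utp15 had larger software errors (0.39, 0.25 and 0.30). The calls lost with normexp also included brighter genes, such as Nolc1 at 4673 and 1349. How far low signal limits single members was not tested. Which causes lie behind the changes with scaling and probe choice was not tested.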
